A study of Mus musculus with 4 samples.

Results

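The 7 genes described here, *Aire*, *Kcnj13*, *Kbtbd11*, *Rasd2*, *Atp7b*, *Selenbp1* and *Ankrd37*, had among the largest increases of mRNA in tumor repopulating cells (TRCs) of mouse melanoma, and none has a classical role in glycolysis. They were chosen by the measurement itself, as genes whose mean level was more than 16-fold higher in TRCs than in parental cells, so their differences between the groups are given as a description without a test. The count tables hold 39179 genes, of which 11483 passed the filter on low levels, and 28 of these (0.244%) were more than 16-fold higher by mean level. The 7 genes are a selection from the 28. The other 21 include further genes with no role in glycolysis, such as *Mgarp* and *Col2a1*, so the threshold and the lack of such a role do not by themselves give these 7. B16F1 is an established mouse melanoma cell line. The parental B16F1 control cells were grown on rigid culture dishes, and the TRCs are the cells of multicellular spheroids that grew from single B16F1 cells in soft 3D fibrin gels. Each group has 2 libraries, numbered 1 and 3 in the labels, and both groups come from the same line with no added genotype or drug. The TRCs differ from the parental cells in substrate, in growth as spheroids and in having been selected by the gel, and these differences cannot be told apart in this design. Nothing in the labels says that libraries of a group came from separate cultures, so the p-values measure only the spread between these libraries.

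Between 35948295 and 43511554 counts per library fell on genes. Levels are in CPM, counts scaled by the TMM method to the library total over the genes that passed the filter. On this scale 3 counts correspond to between 0.0675 and 0.0850 CPM. Counting error alone enters the intervals and these floors. The share of alignments that were not unique was 15.2% and 17.1% in parental cells, and 18.3% and 25.2% in TRCs. Among 7 melanocyte marker genes, all 7 passed the filter. Their summed level lay between 15711.5 and 18914.8 CPM in parental cells and between 23969 and 26669 CPM in TRCs. In the exact test described below only 1 of them, *Dct*, was called higher, and 6 were not called. *Dct* was at 5694 and 4334 CPM in parental cells and at 11154 and 10027 CPM in TRCs. Of 6 leukocyte markers 5 had no count in any library. The summed level of 6 fibroblast markers was 9.83 to 11.4 CPM in parental cells and 3.12 to 5.80 CPM in TRCs. Of the 3 fibroblast markers that passed the filter, 1 was called lower, *Col1a2*, and 2 were not called. The part of these markers in the results was not tested. None of 4 endothelial markers passed the filter. An RNA measurement on whole cultures cannot tell a change of RNA per cell from a change in how many cells carry the RNA.

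The 7 genes belong to different families. *Aire* encodes the autoimmune regulator, a nuclear protein known from medullary epithelial cells of the thymus, where it drives low expression of genes of other tissues so that self-reactive T cells are removed. *Kcnj13* encodes Kir7.1, an inward rectifier potassium channel best known from the retinal pigment epithelium and other transporting epithelia. *Kbtbd11* encodes a BTB-kelch protein, a class in which many members bind cullin 3 and select substrates for ubiquitin ligases. *Rasd2* encodes Rhes, a Ras-like GTPase known from the striatum, and *Atp7b* encodes the copper-transporting P-type ATPase that is mutated in Wilson disease and exports copper from liver cells. *Selenbp1* encodes a selenium-binding protein with methanethiol oxidase activity, which yields hydrogen sulfide, and *Ankrd37* encodes a small ankyrin repeat protein that is a known target of hypoxia-inducible factor (HIF). HIF is the transcription factor that is stabilized when oxygen is low, and it binds the short sequence RCGTG, in which the first base is A or G.

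The promoters were searched for both forms, ACGTG and GCGTG, on both strands. Of the 7 genes 6 had an entry in the RefSeq table of windows (GRCm38.p6, 250 bases before to 50 bases after the start site). *Kbtbd11* had none. The 3 promoters below are shown because they span the range of matches, from 3 or more in *Ankrd37* and *Selenbp1* to none in *Rasd2*. Each window is printed from its 5′ end, in the direction of the gene, up to the first base that GENCODE M21 annotates as exon, and capitals mark the bases of the matches. The *Ankrd37* stretch is chr8:45999868-46000100 on the minus strand, which lies in an intron of a longer annotated transcript that starts upstream of the RefSeq start. The *Selenbp1* stretch is chr3:94932833-94933055 on the plus strand, and the *Rasd2* stretch chr8:75213694-75213943 on the plus strand.
Ankrd37: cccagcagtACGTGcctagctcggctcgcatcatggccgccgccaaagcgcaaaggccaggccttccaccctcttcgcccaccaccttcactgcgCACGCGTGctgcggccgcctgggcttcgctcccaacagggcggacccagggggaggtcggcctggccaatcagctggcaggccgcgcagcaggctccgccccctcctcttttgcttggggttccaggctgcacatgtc
Selenbp1: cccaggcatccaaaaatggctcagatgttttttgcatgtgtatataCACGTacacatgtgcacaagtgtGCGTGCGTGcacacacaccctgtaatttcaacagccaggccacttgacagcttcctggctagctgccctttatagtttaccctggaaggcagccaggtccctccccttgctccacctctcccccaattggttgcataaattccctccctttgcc
Rasd2: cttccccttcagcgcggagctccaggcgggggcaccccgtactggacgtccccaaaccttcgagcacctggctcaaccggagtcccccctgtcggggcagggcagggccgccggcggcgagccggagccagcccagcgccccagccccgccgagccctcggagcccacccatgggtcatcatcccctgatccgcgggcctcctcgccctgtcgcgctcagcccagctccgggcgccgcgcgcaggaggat

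The *Ankrd37* window held 4 matches, whose leftmost bases lie at positions -241, -155, -152 and -6 from the start site. Those at -155 and -152 lie on opposite strands and overlap in the run CACGCGTG, and the match nearest the start is not printed because it falls in an annotated exon. *Selenbp1* held 3 matches, at positions -204, -181 and -177, of which the last pair overlap by 1 base in the run GCGTGCGTG. *Aire* held 1 match at position 43, after the start, and *Kcnj13* 1 match at position -197. *Rasd2* and *Atp7b* held none in their windows, which have a GC content of 74.7% and 68%. Of the *Atp7b* window only the first 19 bases lie before an annotated exon. A match is only a run of letters, and none says only that the letters are not in this window. At least 1 match stood in 14380 of 32851 windows of the table (43.8%), and 3 or more stood in 8.93%. Among genes that passed the filter, 6214 of 8915 with a window held a match (69.7%), against 4 of 6 of the genes described here and 20 of 21 of a list of HIF targets outside glycolysis. At least 3 matches stood in 20.1% of those tested genes, in 38.1% of the HIF targets and in 2 of the 6 genes described here (33.3%). The share with at least 1 match among the 6 genes with a window is therefore near that of all genes tested. Their share with at least 3 rests on 2 genes.

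**Figure D1:**
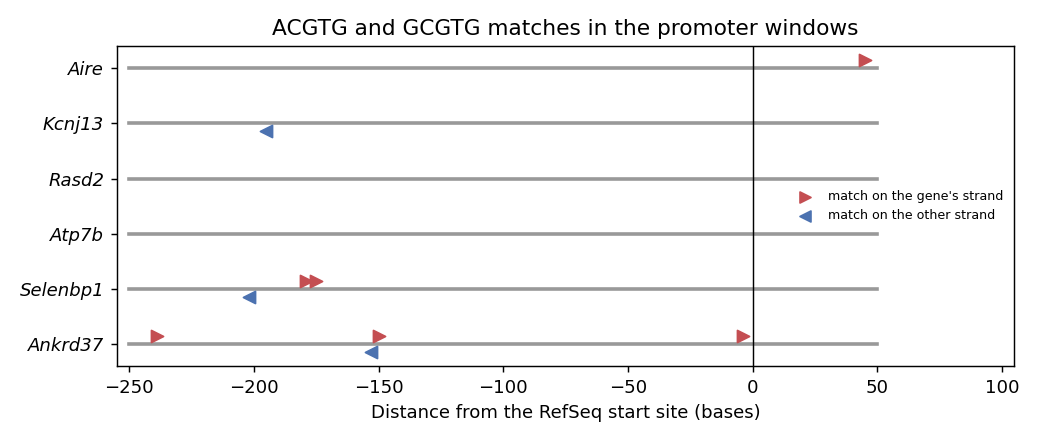
Positions of ACGTG and GCGTG matches relative to the RefSeq start site (x axis, bases) in the windows of 6 genes (y axis); red triangles are matches on the strand of the gene and blue triangles on the other strand. *Ankrd37* carries 4 and *Selenbp1* 3, while the *Rasd2* and *Atp7b* windows are empty.

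*Aire* had the largest increase by mean level of all genes tested. It had 2 and 1 counts in parental libraries 1 and 3, and 222 and 395 counts in TRC libraries 1 and 3. In CPM these are 0.0450 and 0.0283 against 5.34 and 9.49. Both parental libraries were under the 3-count floor, and both TRC libraries stood far above it. The ratio of the group means was 202, and the ratio of the pooled counts 197 with a 95% counting interval of 67.2 to 959. The size of this ratio therefore rests on 3 parental counts, and the TRC level of 7.42 ± 2.94 CPM (SD, n = 2) is the better determined quantity. Per kilobase of exon, *Aire* went from below nearly every tested gene to the percentile 18.2, so its TRC level was low among the genes of these cells.

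*Kcnj13* had 8 and 7 counts in parental libraries 1 and 3 and 966 and 452 counts in the TRC libraries. The levels were 0.180 and 0.198 CPM in parental cells, and 23.2 and 10.9 CPM in TRCs. The parental libraries differed little, and *Kcnj13* was the only one of the 7 genes with the higher TRC value in library 1. The ratio of the group means was 90.1, with a counting interval of 54.8 to 162 for the pooled ratio. The ratio to the parental mean was 123 in TRC 1 and 57.4 in TRC 3. Per kilobase its TRC level stood at the percentile 67.0 of tested genes, from 1.31 in parental cells.

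*Kbtbd11* was measured at 1.01 and 0.850 CPM in parental libraries 1 and 3 and at 35.7 and 69.5 CPM in the TRC libraries. These were 45 and 30 counts against 1484 and 2891. The groups were far apart, and the ratio of means was 56.5, or 38.3 in TRC 1 and 74.6 in TRC 3. *Rasd2* was measured at 1.24 and 0.737 CPM in parental cells and at 24.2 and 63.1 CPM in TRCs. The ratio of means was 44.2, and the TRC libraries differed from each other by 2.61-fold. In both genes parental library 1 was the higher of the parental pair and TRC library 3 the higher of the TRC pair.

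*Atp7b* had 20 and 15 counts in parental libraries 1 and 3 and 442 and 859 counts in the TRC libraries. In CPM these are 0.450 and 0.425 against 10.6 and 20.6, a ratio of means of 35.8. The parental libraries lay close together, and the TRC libraries differed by 1.94-fold. Like *Aire* and *Kcnj13*, *Atp7b* reached 1 CPM only in the TRC libraries. *Kbtbd11*, *Rasd2* and *Ankrd37* also reached it in 1 parental library, but the filter asks for 2 libraries. These genes therefore passed the filter only through the group in which they were high. Only *Selenbp1* reached 1 CPM in both parental libraries.

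*Selenbp1* was the one gene of the 7 with a sizable level in parental cells, 17.4 and 16.5 CPM in libraries 1 and 3. In TRCs it was measured at 202 and 642 CPM, from 8396 and 26708 counts. The ratio of means was 24.9, and it was 11.9 in TRC 1 and 38.0 in TRC 3. *Selenbp1* was thus the only member under 16-fold in a single TRC library. Per kilobase of exon its TRC level stood at the percentile 98.2 of tested genes, from 49.3 in parental cells. *Ankrd37* was measured at 0.405 and 1.02 CPM in parental libraries 1 and 3 and at 22.2 and 45.0 CPM in the TRC libraries. Its ratio of means was 47.2, and it was the gene with the widest parental pair, 2.52-fold apart with library 3 the higher.

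Across the 7 genes, the lowest TRC value was above the highest parental value in every case, by at least 11.6-fold. The rule of choice fixes this direction. All 7 passed the filter, and of these 6 were over 16-fold in TRC 1 and 7 in TRC 3. Just inside the threshold stood *Gm10639* at 16.1-fold and *Loxl2* at 16.5-fold, and just outside it *Epm2a* at 15.97-fold and *H2-T23* at 15.1-fold. The ratios of *Aire* and *Kcnj13* ranked first and second among all genes tested, also by the edgeR fold change.

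**Figure D2:**
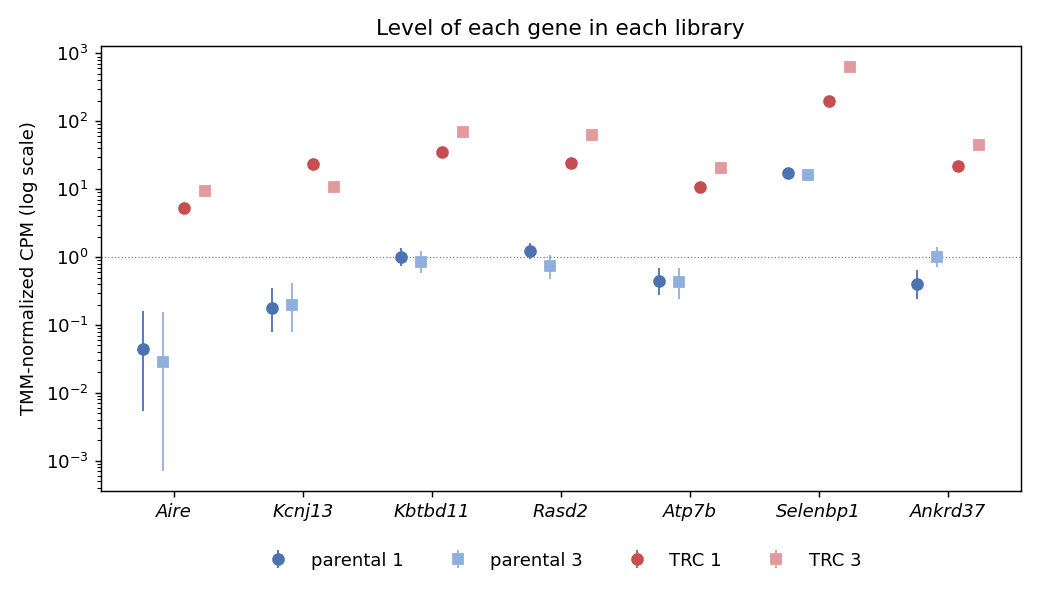
Level of each of the 7 genes (x axis) in each library, in TMM-normalized CPM on a log scale (y axis); circles are replicate 1 and squares replicate 3, blue is parental, red is TRC, and vertical lines are 95% counting intervals. The dotted line is 1 CPM, and every TRC value lies above both parental values of the same gene.

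Compared per kilobase of exon, the order of TRC levels was *Selenbp1* at 186 CPM per kilobase, *Ankrd37* at 21.8, *Rasd2* at 13.7, *Kcnj13* at 13.4, *Kbtbd11* at 7.37, *Atp7b* at 2.40 and *Aire* at 1.94. The TRC values of *Selenbp1* did not overlap those of *Ankrd37*, and those of *Kbtbd11* did not overlap those of *Atp7b*. All other neighbours in this order overlapped between the 2 libraries. Within each library, *Ankrd37* was above *Rasd2*, at 14.4 against 7.62 in TRC 1 and 29.3 against 19.9 in TRC 3. *Atp7b* was above *Aire* in both, at 1.63 against 1.40 in TRC 1 and 3.17 against 2.48 in TRC 3. *Kcnj13* changed places with *Rasd2* and with *Kbtbd11* between the libraries, so its order with them is not resolved. In parental cells the order began with *Selenbp1* at 7.44 and *Ankrd37* at 0.463 CPM per kilobase and ended with *Aire* at 0.00958. With 2 libraries a group, no exact permutation p-value for a single gene can be smaller than 0.333, so none is given.

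The TRC libraries did not carry these RNAs equally. On the scale of log2(CPM + 0.5), TRC 3 exceeded TRC 1 by 0.77 for *Aire*, 0.95 for *Kbtbd11*, 1.36 for *Rasd2*, 0.93 for *Atp7b*, 1.67 for *Selenbp1* and 1.01 for *Ankrd37*. For *Kcnj13* the difference was -1.06, in the other direction. Over all 11483 genes tested the median of this difference was 0.00068, with 90% of genes between -0.65 and 0.60. The 7 genes therefore all lay outside the range of most genes, 6 above it and 1 below. Among genes within 2-fold of the same TRC level, a difference at least as large in either direction was seen in none of 802 for *Selenbp1*, in 0.537% of 4467 for *Rasd2*, in 1.51% of 4441 for *Kbtbd11*, in 1.75% of 4348 for *Ankrd37*, in 2.35% of 3324 for *Kcnj13*, in 3.78% of 3149 for *Atp7b* and in 10.3% of 1956 for *Aire*. The difference of *Aire* was thus the least unusual for its level.

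The same direction was seen in other strongly increased genes. Of the other 21 genes over 16-fold, 18 were higher in TRC 3, with a median difference of 1.02. Of the 1005 other genes called higher in TRCs, 526 were higher in TRC 3, with a median of 0.030. Of 25 tested HIF targets outside glycolysis, 24 were higher in TRC 3, with a median of 0.77 and a range of -0.086 to 1.83. TRC 3 also held the larger share of alignments that were not unique, 25.2% against 18.3%. The part of either in the replicate differences of the 7 genes was not tested.

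**Figure D3:**
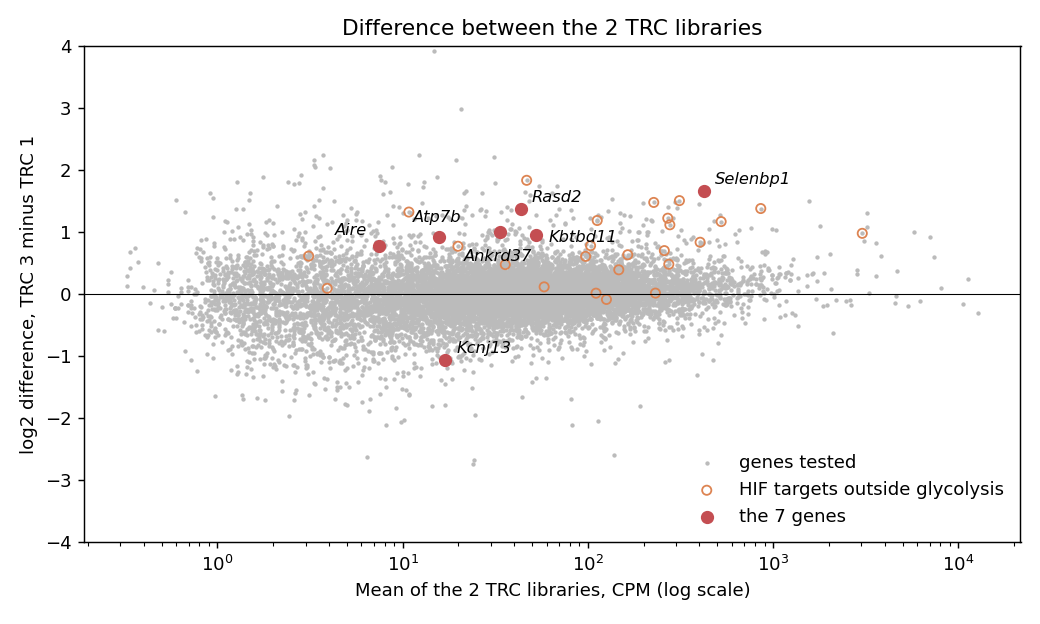
Difference between the TRC libraries (y axis, log2 of CPM + 0.5, TRC 3 minus TRC 1) against their mean CPM (x axis, log scale), with grey points for the genes tested, open orange circles for HIF targets outside glycolysis and red points for the 7 genes. Of the red points, 6 lie above 0 and *Kcnj13* lies at -1.06.

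The profiles over the 4 libraries were compared with those of all other tested genes, by the distance between log2(CPM + 0.5) values after subtraction of the mean of each gene. The nearest profile to *Rasd2* was that of *Bnip3*, a mitochondrial protein of autophagy, at a distance of 0.22. *Bnip3* was measured at 29.2 and 19.7 CPM in parental cells and at 477 and 1240 CPM in TRCs. The nearest to both *Aire* and *Atp7b* was *Aldoc*, an aldolase of glycolysis, at distances of 0.35 and 0.25, and the next were *Egln3* for *Aire* and *Epm2a* for *Atp7b*. The nearest to *Selenbp1* were *Stc1*, a secreted glycoprotein, at 0.28 and *Pdk1*, a kinase of pyruvate dehydrogenase, at 0.45. *Kbtbd11* lay nearest to *Mgarp* at 0.37 and *Bnip3* at 0.44, and *Ankrd37* to *Pgf*, a growth factor of the VEGF family, at 0.65 and *Stc1* at 0.68. The profile of *Kcnj13* had no such close match, since its nearest genes, *Ndrg2* and *Mgarp*, were at 1.17 and 1.20. Among the 7 genes themselves *Aire* and *Atp7b* were closest at 0.23, and *Kcnj13* and *Selenbp1* farthest at 1.94. Subtraction of the mean removes the level of a gene. The 0.5 CPM added lies above both parental values of *Aire*, *Kcnj13* and *Atp7b*, and it shrinks their contrasts. Near profiles therefore need not mean like ratios of means, which were 202 for *Aire* and 35.8 for *Atp7b*. With 4 libraries and a shared contrast, near profiles are a description of contrast and replicate pattern on this scale only.

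The families and pathways of the 7 genes were examined in 12 lists of 260 other genes, of which 175 passed the filter. In the exact test of edgeR at a false discovery rate (FDR) under 0.05, 8.81% of all genes tested were higher in TRCs, 7.05% were lower and 15.9% differed in either direction. Of the 175, 34 were higher and 16 lower, but 22 of the 34 belonged to the list of HIF targets. In the other lists together, 12 of 150 were higher (8%) and 16 lower (10.7%), with a median log2 fold change of -0.083 against 0.0034 for all genes. These shares lie near those of all genes.

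Among 20 SAND-domain proteins and partners of AIRE, 16 were tested, 1 was higher and 2 were lower, with a median log2 fold change of -0.28. *Jmjd6*, an oxygen-dependent hydroxylase that acts on splicing factors, was at 76.6 and 84.3 CPM in parental cells and at 98.1 and 207 CPM in TRCs, with a log2 fold change of 0.92 ± 0.33 (SE, edgeR FDR 0.0259). *Sirt1*, a deacetylase, was lower by a log2 fold change of -0.95 ± 0.30 (FDR 0.0407), and *Xrcc6*, the Ku70 subunit of DNA repair, by -0.60 ± 0.19 (FDR 0.0434). None of these 3 calls held with each library left out. *Jmjd6* lost its call without parental 1, parental 3 or TRC 3 (FDR 0.128 to 0.659), *Sirt1* without parental 3, TRC 1 or TRC 3 (0.101 to 0.393), and *Xrcc6* without any 1 of the 4 libraries (0.0713 to 0.247).

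Of 14 tissue-restricted antigens that thymic epithelium is known to express, 10 had no count in any library. The only one tested was *Tg*, thyroglobulin, at 71.7 and 83.4 CPM in parental cells and at 17.7 and 26.1 CPM in TRCs. *Tg* fell by 1.82 on the log2 scale (SE 0.27, edgeR FDR 6.17e-10), in the opposite direction to *Aire*. Of 18 genes of thymic epithelium, not all of them medullary, 12 had no count in any library. Among these 12 were the thymic transcription factor *Foxn1*, the thymoproteasome subunit *Psmb11*, the regulator *Fezf2* and the keratins *Krt5* and *Krt14*. Only 3 of the 18 passed the filter, with none called and a median log2 fold change of -0.14. The epithelial adhesion gene *Epcam* had 2, 2, 2 and 1 counts.

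None of 16 other genes of inward rectifier channels and their sulfonylurea receptor subunits passed the filter, and 7 had no count in any library. The highest value among them was 0.737 CPM, of *Kcnj14* in parental library 3, with 10, 26, 1 and 5 counts in parental 1, parental 3, TRC 1 and TRC 3. *Kcnj13* was the only gene of the family that was tested. None of 5 markers of retinal pigment epithelium, where *Kcnj13* is best known, passed the filter. *Rpe65* had 2, 0, 0 and 0 counts in the same order, *Best1* 0, 1, 2 and 0, and *Rgr* none. *Rlbp1*, a retinoid-binding protein, was above the floor at 0.315, 0.652, 2.19 and 0.697 CPM, and *Lrat*, an acyltransferase of retinol, at 0.382, 0.283, 0.794 and 0.937 CPM. The summed level of the 5 markers was 0.742 and 0.964 CPM in parental cells and 3.03 and 1.63 CPM in TRCs. The sum and *Rlbp1* were higher in TRC 1, while *Lrat* was higher in TRC 3. The part of these markers in the level of *Kcnj13* was not tested.

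Of 30 BTB-kelch genes and their cullin 3 ligase subunits, 27 were tested, 3 were higher and 1 was lower, with a median log2 fold change of 0.059. *Klhl26* was higher by 1.34 ± 0.30 (SE, edgeR FDR 0.00177) and *Klhl25*, an adaptor of cullin 3, by 1.0 ± 0.26 (FDR 0.00713), while *Klhl21*, an adaptor of cullin 3 in mitosis, had a log2 fold change of -1.14 ± 0.29 (FDR 0.000797). *Klhl26* and *Klhl21* lost their calls without parental 3 or TRC 3 (FDR 0.0552 to 0.0953 and 0.0601 to 0.0695), and *Klhl25* without parental 3 or TRC 1 (0.0589 to 0.237). Of 33 Ras-like GTPases 21 were tested, and 1 was called, *Rras*, a small GTPase of integrin adhesion. *Rras* was at 12.1 and 6.35 CPM in parental cells and at 33.7 and 31.1 CPM in TRCs, with a log2 fold change of 1.81 ± 0.34 (edgeR FDR 1.72e-05). *Rasd1*, the nearest relative of *Rasd2*, had no count in any library.

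Of 22 genes of copper transport and storage 20 were tested, 2 were higher and 3 lower. The paralog *Atp7a*, which also pumps copper, was at 77.5 and 83.3 CPM in parental cells and at 144 and 172 CPM in TRCs, with a change of 0.98 ± 0.21 on the log2 scale (SE, edgeR FDR 0.00057). The ratio of means of *Atp7a*, 1.97, was far below the 35.8 of *Atp7b*. The metallothionein *Mt1* was higher by 1.07 ± 0.32 (FDR 0.00732), a call that was lost without parental 1, parental 3 or TRC 3 (0.0611 to 0.396). The metalloreductases *Steap1* and *Steap2* were lower, with log2 fold changes of -2.10 ± 0.40 (FDR 7.71e-05) and -1.42 ± 0.31 (FDR 0.000214). Of 14 copper-dependent enzymes 7 were tested, 2 were higher and 1 lower. The higher ones were *Loxl2*, a lysyl oxidase, by 4.0 ± 0.78 (FDR 3.93e-06), and *Pam*, which amidates peptide hormones, by 1.08 ± 0.21 (FDR 5.91e-05). *Loxl2* was at 0.652 and 0.0850 CPM in parental cells and at 3.54 and 8.60 CPM in TRCs, and its log2 fold change was 6.11 without parental 1, 3.21 without parental 3 and 3.21 without TRC 3. *Cp*, ceruloplasmin, was lower with a log2 fold change of -0.77 ± 0.24 (FDR 0.0129), and lost its call without parental 3 or TRC 1 (0.0893 to 0.279).

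Of 8 genes of sulfide and methanethiol metabolism 6 were tested, none was called higher and 1 was lower. *Cth*, which makes hydrogen sulfide from cysteine, was at 22.9 and 15.6 CPM in parental cells and at 9.57 and 5.77 CPM in TRCs, with a change of -1.33 ± 0.36 on the log2 scale (SE, edgeR FDR 0.00723), with a call lost without parental 1 or TRC 3 (0.0987 to 0.217). The paralog *Selenbp2* had 2, 2, 4 and 21 counts and did not pass the filter. Of 25 selenoproteins and genes of their synthesis 23 were tested, 2 were higher and 4 lower. *Selenop*, a plasma selenium carrier, was higher by 1.07 ± 0.31 (FDR 0.00458) and *Selenok* by 0.72 ± 0.23 (FDR 0.0196). *Selenoh* and the thioredoxin reductase *Txnrd1* were lower, with log2 fold changes of -1.56 ± 0.24 (FDR 1.11e-07) and -1.42 ± 0.24 (FDR 2.97e-06). *Txnrd1* was at 456 and 673 CPM in parental cells and at 199 and 223 CPM in TRCs. *Selenop* lost its call without parental 3 or TRC 1 (0.0872 to 0.142) and *Selenok* without parental 1, TRC 1 or TRC 3 (0.152 to 0.160).

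Of 28 HIF targets outside glycolysis 25 were tested, 22 were higher and none was lower, with a median log2 fold change of 2.12. The smallest FDR values were those of *Mgarp*, a mitochondrial protein, at 6.01 ± 0.36 (SE, edgeR FDR 2.83e-41) and *Bnip3* at 5.13 ± 0.38 (FDR 2.37e-27). *Mgarp* was at 0.540 and 0.567 CPM in parental cells and at 29.9 and 41.8 CPM in TRCs. Of 32 other ankyrin repeat genes, the structural family of *Ankrd37*, 26 were tested, 1 was higher and 3 were lower, with a median of -0.15. *Ankrd50* was higher by 0.68 ± 0.21 (FDR 0.0274), while *Ankrd10* and *Ankrd26* had log2 fold changes of -0.82 ± 0.25 (FDR 0.00978) and -0.71 ± 0.24 (FDR 0.0277). *Ankrd50* lost its call without any 1 of the 4 libraries (0.0597 to 0.334), *Ankrd10* without parental 3 or TRC 3 (0.191 to 0.208), and *Ankrd26* without parental 1, parental 3 or TRC 3 (0.0777 to 0.361). Of the tested ankyrin repeat genes 3.85% were called higher, and of the tested HIF targets 88%, beside 8.81% of all genes. Both lists were chosen with earlier results of these data known. The HIF list holds *Mgarp*, *Bnip3* and *Egln3*, which were themselves over 16-fold by mean level. The cause of the increase of *Ankrd37* was not tested.

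**Figure D4:**
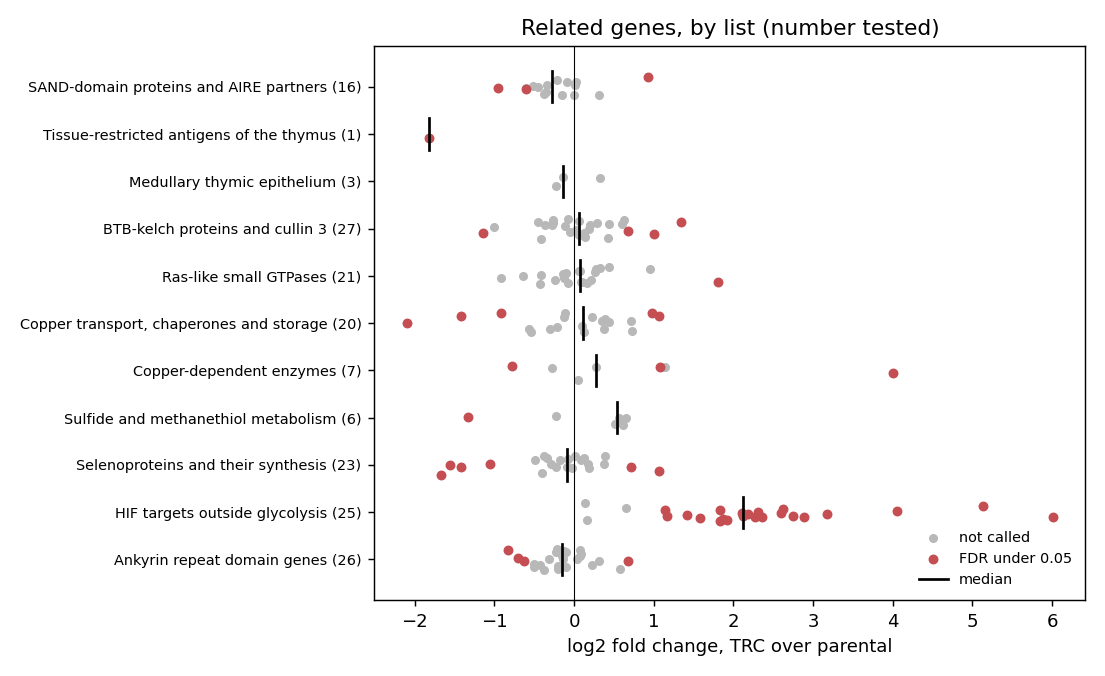
log2 fold change of TRC over parental cells (x axis) for each tested gene of the related lists (y axis, number tested in parentheses), with red points for an FDR under 0.05, grey points for genes not called and black bars for the medians. The medians lie between -1.82 for the 1 tested tissue-restricted antigen and 2.12 for the HIF targets, and most lie near 0.

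The genes beside the 7 in the genome were examined next, in the GENCODE M21 annotation of GRCm38. *Aire* lies at chr10:78030022-78043610, *Kcnj13* at chr1:87386363-87394729 and *Selenbp1* at chr3:94933056-94944758. The other 4 lie on chromosome 8, *Kbtbd11* at chr8:15011025-15033333, *Atp7b* at chr8:21992785-22060305, *Ankrd37* at chr8:45996902-46005707 and *Rasd2* at chr8:75213944-75224113. Chromosome 8 held 5.57% of all genes tested, these 4 included. Of its 636 other tested genes, 7.86% were higher in TRCs. Their median log2 fold change was 0.048. The medians of all chromosomes lay between -0.093 and 0.17, so the other genes of chromosome 8 did not stand apart.

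The 20 nearest or overlapping genes annotated included 18 in the count tables and 10 that were tested. Of these 10, 4 were higher, 1 was lower and 5 were not called, beside 8.81% higher and 7.05% lower among all genes tested. Their median log2 fold change was 0.49, against 0.0034 for all genes tested. *Pfkl*, the liver-type phosphofructokinase of glycolysis, is the next gene downstream of *Aire* on the same strand, 19938 bases away. It was at 55.5 and 57.8 CPM in parental cells and at 215 and 587 CPM in TRCs, with a log2 fold change of 2.82 ± 0.38 (SE, edgeR FDR 1.19e-10). *Icosl*, a costimulatory ligand upstream of *Aire*, had 10, 27, 81 and 53 counts in parental 1, parental 3, TRC 1 and TRC 3 and a log2 fold change of 1.72 (FDR 0.0407), a call that was lost without parental 1, TRC 1 or TRC 3 (0.0967 to 0.341). *Dnmt3l*, which overlaps *Aire* on the other strand, had 1, 0, 0 and 0 counts.

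*Gigyf2*, a regulator of translation, overlaps *Kcnj13* on the other strand. It was at 92.8 and 94.3 CPM in parental cells and at 99.5 and 99.6 CPM in TRCs, with a change of 0.089 on the log2 scale (FDR 0.84). *Arhgef10* beside *Kbtbd11* (0.34, FDR 0.379), *Alg11*, whose gene starts 415 bases from *Atp7b* on the other strand (0.55, FDR 0.282), and *Psmb4* and *Rfx5* beside *Selenbp1* (-0.22, FDR 0.599 and 0.43, FDR 0.416) were not called either. *Mcm5*, a helicase subunit of DNA replication 85504 bases upstream of *Rasd2*, was lower with a log2 fold change of -0.90 (edgeR FDR 0.0149). *Ufsp2* and *Snx25* beside *Ankrd37* were higher by 0.81 (FDR 0.00624) and 0.77 (FDR 0.0241). *Mcm5* lost its call without parental 3, TRC 1 or TRC 3 (0.133 to 0.440), *Ufsp2* without parental 3 or TRC 3 (0.115 to 0.175) and *Snx25* without parental 1, TRC 1 or TRC 3 (0.0600 to 0.287). Every tested neighbour had a smaller fold change than the gene beside it, a difference that the choice of the 7 genes favours.

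**Figure D5:**
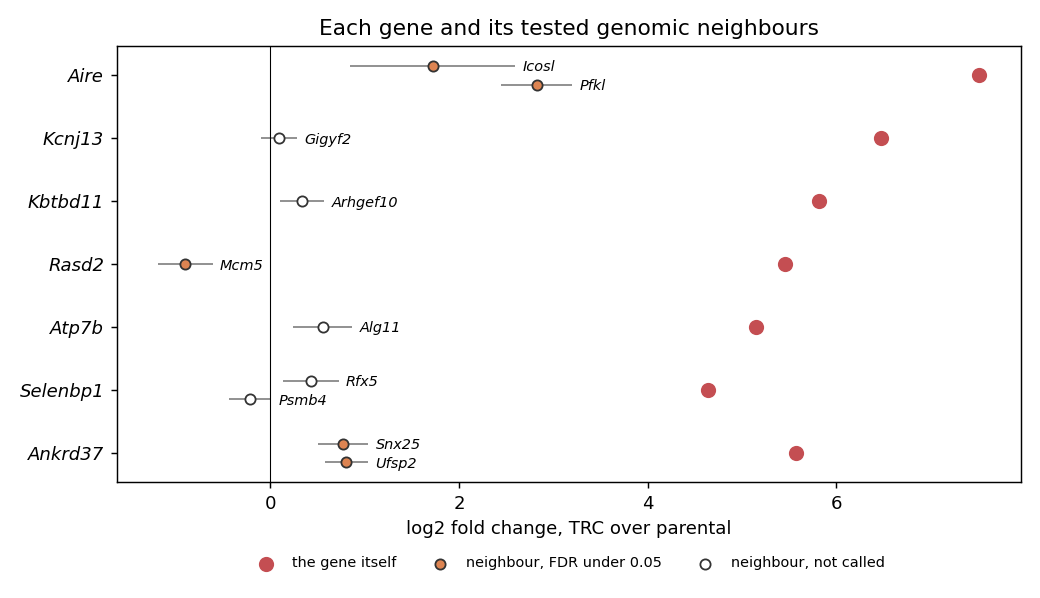
log2 fold change of TRC over parental cells (x axis) for each of the 7 genes (large red points, rows) and its tested genomic neighbours (small points, filled where the FDR was under 0.05); horizontal lines are standard errors. *Pfkl* beside *Aire* is the highest neighbour at 2.82, and *Mcm5* beside *Rasd2* the only one called lower.

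Reads of some of these genes could also fit another gene. Every run of 101 bases, the read length, in the transcripts of *Aire*, *Rasd2* and *Atp7b* was found in no other gene. In *Kcnj13* 427 of 1205 such runs (35.4%) also occurred in *Gigyf2* on the other strand, and in *Kbtbd11* 1675 of 7242 (23.1%) in *Gm37844* on the other strand. In *Selenbp1* 469 of 2523 (18.6%) occurred in *Selenbp2* on the same strand, and in *Ankrd37* 164 of 1532 (10.7%) in *Lrp2bp* on the other strand. The libraries were stranded, but the strand setting of the counting is not given in the sources used here, so opposite-strand overlaps in *Kcnj13*, *Kbtbd11* and *Ankrd37* leave their counts uncertain. *Lrp2bp* had only 6, 3, 14 and 13 counts. Reads shared by *Selenbp1* and *Selenbp2* would align to both and be left out of both, which can lower the counts of either.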

How the data were processed

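The authors sequenced RNA of parental B16F1 cells (2 libraries) and TRCs (2 libraries) with stranded, single-end, 101-base reads. Per the labels and the methods of the study, the reads were trimmed with Trimmomatic 0.35, aligned to GRCm38 with TopHat2 2.1.0, Bowtie2 2.2.6 and SAMtools 1.3 and counted on Ensembl genes with HTSeq. The deposited values are raw counts per gene, 1 set per library. The counting mode and strand setting are not given in the sources used here. Alignments that hit no gene (2.95% to 4.25%), ambiguous ones (0.825% to 0.955%) and those that were not unique stayed out of library sizes and tests.

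Genes with at least 1 CPM in at least 2 of 4 libraries were kept (11483), TMM factors (0.957 to 1.04) were computed, and edgeR 4.0.16 under R 4.3.3 gave the exact test with common and tagwise dispersion (biological coefficient of variation 21.2%) and a prior count of 0.125. FDR values are Benjamini-Hochberg adjusted over all genes tested. Standard errors came from DESeq2 1.42.0. The exact test was checked on simulated counts. Ratios of means used CPM without a prior count. Symbols and positions came from GENCODE M21, which matched 37607 of 39179 identifiers, and promoter windows from RefSeq. Figures used matplotlib 3.10.9 under Python 3.11.15.

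The 7 genes and all gene lists were chosen with earlier results of these data known. Named are all 7 genes, from each list up to 2 genes called higher and 2 called lower with the smallest FDR, the paralogs *Rasd1*, *Atp7a* and *Selenbp2*, the nearest and overlapping protein-coding genes, and the 2 tested genes nearest in profile to each of the 7. Genes with no call in their list, such as *Kcnj14*, *Epcam* and the marker genes, were named after their values were seen. The alternatives were another filter, no filter, DESeq2 size factors, library size only, edgeR's quasi-likelihood test with and without a replicate block, DESeq2's Wald test and each library left out.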

Additional observations from a re-analysis of the deposited data

Results flagged for a closer look

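The share of alignments that were not unique, which enters no gene count, was 18.3% in TRC 1 and 25.2% in TRC 3, both above the 15.2% and 17.1% of the parental libraries. Its part in the levels of the 7 genes was not tested.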

How the results depend on the processing

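The ratios of the 7 genes kept their direction with DESeq2 size factors, library size only, the fold changes of edgeR and DESeq2 and each library left out, between 146 and 262 for *Aire*, 57.4 and 123 for *Kcnj13*, 38.3 and 74.6 for *Kbtbd11*, 24.5 and 64.0 for *Rasd2*, 24.3 and 47.2 for *Atp7b*, 11.9 and 38.0 for *Selenbp1* and 31.1 and 83.0 for *Ankrd37*. *Selenbp1* fell under 16-fold without TRC 3, which left 6 of the 7 above it. Genes differing numbered 1822 (1012 higher and 810 lower), 1054 (567 and 487) with the quasi-likelihood test, 785 (477 and 308) when a replicate block was added to it, and 773 to 1932 (500 to 1078 and 269 to 854) with 1 library left out. Calls in the related lists numbered 50, 28 with the replicate block and 30 to 45 with 1 library left out. Outside the HIF targets they numbered 28, 13 with the replicate block, 18 with the quasi-likelihood test without it and 12 to 24 with 1 library left out. Calls among the neighbours numbered 5, 1 with the replicate block, 2 with the quasi-likelihood test without it and 1 to 3 with 1 library left out, and HIF targets called higher numbered 22 and 15 to 22 under the alternatives. The deviations of same-numbered libraries correlated across genes by only 0.027, so the numbers are not shown to pair the libraries. For the 30 called list genes and neighbours named, 81 of 327 alternative fits lost the call and none reversed. *Loxl2* lost its call with the replicate block (FDR 0.0576). *Loxl2*, *Mgarp* and *Icosl* were not tested with the filter of 1 CPM in 3 libraries. Of the 7 genes, *Aire*, *Kcnj13* and *Atp7b* reached 1 CPM only in the TRC libraries and do not pass that filter either. The cause of these shifts was not tested. With 1 library left out, the lone library is assumed to vary like the others. Depth limits the parental levels of *Aire*, which rest on 3 counts.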
